A study of Mus musculus with 8 samples.

Results

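Protein disulfide isomerases and the oxidases that drive them are enzymes of the endoplasmic reticulum (ER), and 10 of their genes were followed in kidney RNA from mice. The genes were taken by symbol from the table of expected counts, and all 10 were found among its 21759 genes. The isomerases were P4hb, Pdia3, Pdia4, Pdia6, Pdia5 and Txndc5, the relatives with other duties were Erp29 and Erp44, and the oxidases were Ero1l and Ero1lb. All 8 animals were male, 8 months old and carried the knock-in allele that models MUC1 kidney disease, so this allele was shared by the treated mice and their controls. In 4 mice the small molecule BRD4780 was given at 50 mg/kg every day for 7 days, and the titles of these samples call the treatment AGN50. The other 4 received saline as vehicle over the same 7 days. RNA came from a slice of kidney, which mixes all cell types of the organ, and was sequenced as stranded poly(A) libraries. The labels do not state the cells in which the knock-in allele is active, and mice without it were not analysed here.

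Proteins that enter the ER are often held together by disulfide bonds. A protein disulfide isomerase carries pairs of cysteines in thioredoxin-like domains, makes such bonds in a new protein, and breaks and remakes those that are wrong. The oxidases of the ERO1 family take the electrons from the isomerase and pass them to oxygen, which produces hydrogen peroxide. In MUC1 kidney disease a frameshifted mucin accumulates inside tubule cells in the early secretory pathway, where these enzymes work. BRD4780 is described as acting on TMED9, a cargo receptor of that pathway. The comparison asks how the genes of disulfide formation stood in the diseased kidney after treatment.

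Of the 10 genes, 1 fell with BRD4780 and 0 rose. The gene that fell was Pdia4, to 0.747 of its vehicle level. Pdia3 and Pdia6 stood at 0.792 and 0.727 of their vehicle levels, and neither passed the threshold. The remaining genes, including P4hb, the most abundant, had folds between 0.927 and 1.07. The threshold for a change was an adjusted p of 0.05 in the quasi-likelihood test of edgeR, with Benjamini-Hochberg adjustment over 13474 genes. By that rule 0.623% of all tested genes were lower and 2.3% were higher. At an unadjusted p under 0.05, 3 of the 10 genes were lower and 0 higher, against 10.7% and 13.9% of all tested genes. The median log2 fold change of the 10 genes was -0.05, beside 0.01 for all genes, and 6 of 10 were negative, against 48.4% of all genes. All 10 passed the filter on low counts, with between 59 and 33377 counts in a library.

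Libraries held 5.74 to 28.2 M expected counts in the BRD4780 group and 16.6 to 28.5 M in the vehicle group. BRD4780 replicate 4 was the shallowest, and there a floor of 3 counts equals 0.523 counts per M of the unscaled total. Levels below are in CPM, counts per M with TMM-scaled totals, unless another unit is named. In whole kidney RNA, fewer cells of a type and less RNA per cell cannot be told apart. The labels describe 4 mice per arm, and each library was taken as 1 animal, numbered by order of deposition within its group.

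The stretches before the starts of 5 of these genes are printed because Pdia3, Pdia4 and Pdia6 had the lowest folds while P4hb, the most abundant gene, had a fold near 1, and because Ero1lb shares a motif with Pdia6. They are the 250 bases before the annotated start, 5′ to 3′ on the gene's strand, from RefSeq on GRCm38.p6. Capitals mark the CCAAT box on either strand, the fixed letters of the ER stress response element (ERSE) and the ACGTGG core on either strand.
Pdia4, chr6:47813513-47813762, minus strand: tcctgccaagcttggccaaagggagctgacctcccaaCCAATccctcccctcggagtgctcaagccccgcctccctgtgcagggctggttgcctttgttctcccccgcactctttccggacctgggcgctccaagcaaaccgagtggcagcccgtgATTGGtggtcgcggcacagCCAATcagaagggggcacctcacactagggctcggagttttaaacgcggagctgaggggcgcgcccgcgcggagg
Pdia3, chr2:121413652-121413901, plus strand: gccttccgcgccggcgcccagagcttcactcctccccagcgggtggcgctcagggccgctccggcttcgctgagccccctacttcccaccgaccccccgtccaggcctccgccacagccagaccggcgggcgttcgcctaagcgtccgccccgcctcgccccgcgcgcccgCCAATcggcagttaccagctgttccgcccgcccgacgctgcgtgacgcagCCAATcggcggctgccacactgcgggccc
Pdia6, chr12:17266339-17266588, plus strand: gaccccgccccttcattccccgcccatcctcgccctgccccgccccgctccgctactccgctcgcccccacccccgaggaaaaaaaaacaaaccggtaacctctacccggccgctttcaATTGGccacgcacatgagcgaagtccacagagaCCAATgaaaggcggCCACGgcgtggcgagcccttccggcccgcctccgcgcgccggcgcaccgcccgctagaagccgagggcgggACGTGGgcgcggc
P4hb, chr11:120573254-120573503, minus strand: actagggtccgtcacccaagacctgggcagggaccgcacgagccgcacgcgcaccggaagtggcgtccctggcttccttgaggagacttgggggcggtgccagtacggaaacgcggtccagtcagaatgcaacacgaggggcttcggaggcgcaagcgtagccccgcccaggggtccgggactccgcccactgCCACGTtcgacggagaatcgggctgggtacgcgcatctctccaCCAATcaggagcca
Ero1lb, chr13:12565633-12565882, plus strand: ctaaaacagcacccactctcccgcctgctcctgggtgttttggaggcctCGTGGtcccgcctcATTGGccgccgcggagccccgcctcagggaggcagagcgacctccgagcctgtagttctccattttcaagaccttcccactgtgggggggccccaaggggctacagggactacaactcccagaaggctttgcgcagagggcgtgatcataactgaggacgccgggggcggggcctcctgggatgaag

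The ERSE is a composite element through which ATF6 and XBP1 act together with the CCAAT-binding factor NF-Y, and it was searched on both strands as CCAAT, then any 9 bases, then CCACG. Among the 9 genes with a window in the table, an exact match was found in Pdia6, at positions -98 to -80 from the start, and in Ero1lb on the opposite strand, at -201 to -183. Exact matches stood in 0.113% of all 32851 windows of this length. The CCAAT box alone, which forms part of the ERSE, was present in 33.8% of all windows. Pdia4 had 3 such boxes, at -213, -94 and -75, and Pdia3 had 2, at -79 and -29. Pdia6 had 2, at -131 and -98, P4hb had 1 at -14 and Ero1lb had 1 at -187. Erp44 had 1 box in each of its windows, at -126 and at -172. The windows of Pdia5, Txndc5 and Ero1l had none. The core ACGTGG, an XBP1-type motif read on both strands that contains the CCACG end of the ERSE, stood in P4hb at -57, in Pdia6 at -13, in Pdia5 at -8 and in 1 of 3 windows of Txndc5, and in 6.91% of all windows. The ERSE-II element, searched on both strands as ATTGG, then any base, then CCACG, and thus holding both ERSE ends, was in none of the 12 windows of these genes and in 0.0304% of all windows. The C/EBP-ATF response element TGATGNAA, searched on both strands, stood in another of the Txndc5 windows and in 3.45% of all windows. These matches describe letters in a window and not binding.

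Pdia4 encodes ERp72, an ER isomerase with more than the usual pair of catalytic domains. The gene lies on chr6:47796141-47813430, minus strand (mm10, GENCODE M21), and its exons overlap the microRNA gene Mir704 on the same strand. Its level was 112, 126, 131 and 138 CPM in BRD4780 mice 1 to 4, against 182, 167, 172 and 155 CPM in vehicle mice 1 to 4. Every treated library lay below every vehicle library, with vehicle mouse 4 the lowest of the controls. The means were 127 ± 11.0 CPM with BRD4780 and 169 ± 11.3 CPM with vehicle (SD, n = 4 each). The log2 fold change was -0.42 ± 0.09 (SE; 0.747-fold, 95% interval 0.655 to 0.852, adjusted p = 0.0354). The call held in 2 of 8 fits that left out 1 library, and over the 8 the adjusted p ranged from 0.00690 to 0.119 and the log2 fold change from -0.46 to -0.36. It was also lost without TMM scaling (adjusted p = 0.0528).

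Pdia3 encodes ERp57, which works on glycoproteins held by the lectins calnexin and calreticulin. It lies on chr2:121413775-121438687, plus strand, and shares exon sequence with Catsper2 on the opposite strand. The 4 BRD4780 libraries held 504, 516, 577 and 601 CPM, against 693, 707, 707 and 666 CPM in the 4 vehicle libraries. The groups did not overlap, and BRD4780 mice 1 and 2 were the lowest. The means were 549 ± 47.0 CPM with BRD4780 and 693 ± 19.6 CPM with vehicle (SD, n = 4 each), a log2 fold change of -0.34 ± 0.09 (SE; 0.792-fold, 95% interval 0.695 to 0.903). Its adjusted p of 0.0621 missed the threshold.

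Pdia6 encodes ERp5, also called P5, a partner of the chaperone BiP. It lies on chr12:17266545-17284770, plus strand, with exons overlapping Atp6v1c2 on the opposite strand. BRD4780 mice 1 to 4 had 132, 131, 152 and 174 CPM, against 219, 224, 198 and 167 CPM in vehicle mice 1 to 4. The groups crossed at a single pair, BRD4780 mouse 4 above vehicle mouse 4. The means were 147 ± 20.2 CPM with BRD4780 and 202 ± 26.0 CPM with vehicle (SD, n = 4 each), a log2 fold change of -0.46 ± 0.12 (SE; 0.727-fold, 95% interval 0.605 to 0.875, adjusted p = 0.0666). The fold of Pdia6 was farther from 1 than that of Pdia4, and so was its spread within each group. By the DESeq2 Wald test and by limma-voom with quality weights, Pdia3 (adjusted p = 0.00146 and 0.0102) and Pdia6 (adjusted p = 0.00832 and 0.0139) were lower together with Pdia4. These tests called more of all genes lower, 3.8% by DESeq2 and 11.1% by limma-voom. The same 3 genes were lower in edgeR's test without BRD4780 mouse 3, where 11.3% of all genes were lower.

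**Figure D1:**
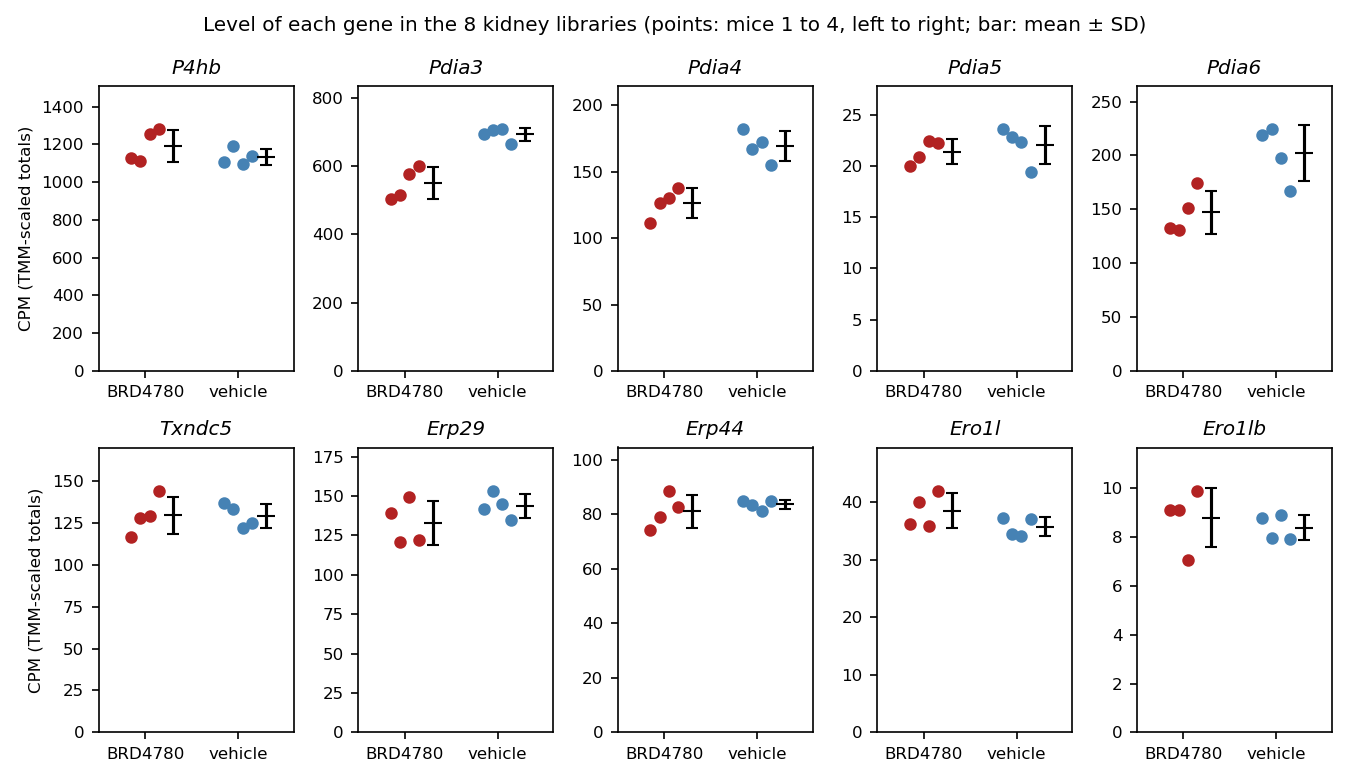
Level of each gene in CPM with TMM-scaled totals (vertical axes from 0, one panel per gene) in the 4 BRD4780 mice, left, and the 4 vehicle mice, right, as points, with the mean and SD as a bar. In Pdia3 and Pdia4 the treated points all lie below the vehicle points, in Pdia6 they cross at 174 and 167 CPM, and the other panels overlap.

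P4hb encodes the founding member of the family, PDI itself, which is also the beta subunit of collagen prolyl 4-hydroxylase and of the lipid transfer protein of the ER. It lies on chr11:120560298-120573253, minus strand. Levels were 1128, 1109.8, 1254 and 1279 CPM in the BRD4780 mice, against 1109, 1192, 1094 and 1137 CPM in the vehicle mice. The groups overlapped, and the pair of highest libraries were BRD4780 mice 3 and 4. The means were 1193 ± 86.1 CPM with BRD4780 and 1133 ± 43.4 CPM with vehicle (SD, n = 4 each), a log2 fold change of 0.07 ± 0.09 (SE; 95% interval of the fold 0.921 to 1.20, adjusted p = 0.627).

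Txndc5 encodes ERp46, an isomerase best known from endothelium and from cells that secrete much protein. Its level was 117, 128, 129 and 144 CPM with BRD4780, against 137, 133, 122 and 125 CPM with vehicle. Both groups averaged 129 CPM, with an SD of 11.2 with BRD4780 and 7.11 with vehicle (n = 4 each), and the 95% interval of the fold was 0.883 to 1.13 (adjusted p = 0.996). Its exons overlap Bmp6 on the opposite strand. Pdia5 encodes PDIR, a less studied isomerase of the ER. It had 19.9, 20.8, 22.5 and 22.3 CPM in BRD4780 mice, against 23.5, 22.8, 22.3 and 19.4 CPM in vehicle mice. The groups overlapped throughout, and the 95% interval of the fold was 0.844 to 1.11 (adjusted p = 0.789).

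Erp29 encodes a lumen protein with the thioredoxin fold but without the catalytic cysteine pair, which acts as an escort of secretory proteins. It had 139, 121, 149 and 122 CPM with BRD4780, against 142, 153, 145 and 134 CPM with vehicle. BRD4780 mice 2 and 4 were below all vehicle mice and the other two were not. The fold was 0.927 (95% interval 0.811 to 1.06, adjusted p = 0.454), and the exons overlap Naa25 and Tmem116 on the opposite strand. Erp44 encodes a protein that moves between the ER and the Golgi, binds clients through a mixed disulfide and brings them back, among them the ERO1 oxidases, which carry no ER return signal of their own. Its levels were 74.2, 78.9, 88.6 and 82.8 CPM in BRD4780 mice, against 84.9, 83.5, 81.4 and 85.1 CPM in vehicle mice. The vehicle values were close together, with an SD of 1.68 CPM, and the treated values spread on both sides of them with an SD of 6.12 CPM. The fold was 0.968 (95% interval 0.866 to 1.08, adjusted p = 0.731).

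Ero1l encodes ERO1 alpha, the widely expressed oxidase, and Ero1lb encodes ERO1 beta, best known from pancreas. Ero1l had 36.2, 40.2, 36.0 and 42.0 CPM with BRD4780, against 37.3, 34.5, 34.2 and 37.0 CPM with vehicle. Its BRD4780 mice 2 and 4 were above all vehicle mice, and the fold was 1.07 (95% interval 0.951 to 1.21, adjusted p = 0.438). Ero1lb had 9.10, 9.09, 7.06 and 9.87 CPM with BRD4780, against 8.76, 7.96, 8.89 and 7.89 CPM with vehicle. BRD4780 mouse 3 held the lowest value of the 8 and mouse 4 the highest, and the fold was 1.04 (95% interval 0.846 to 1.28, adjusted p = 0.830). Neither oxidase passed the test in either direction. Ero1lb had the fewest counts of the 10 genes, 59 to 271 in a library, and the widest interval among the genes near their vehicle level.

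**Figure D2:**
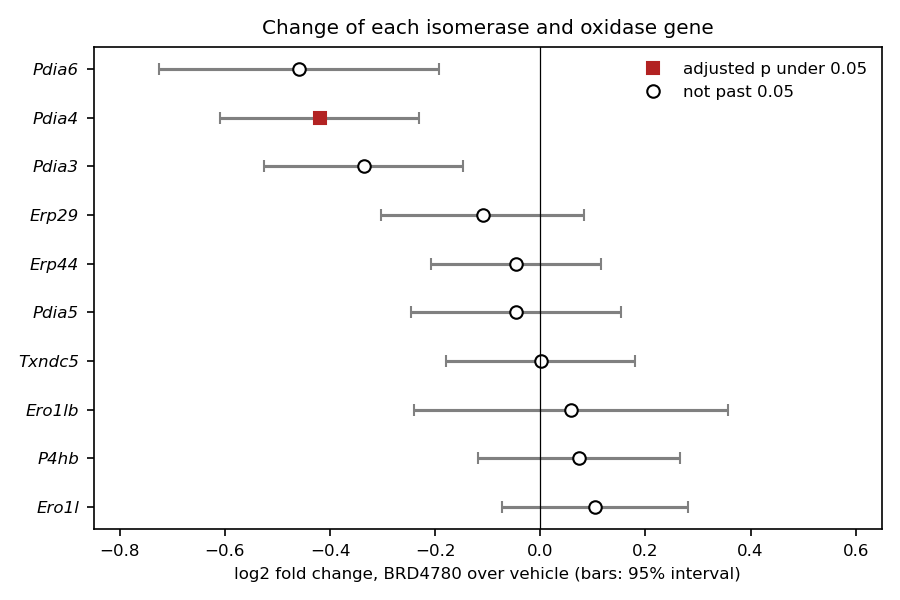
Log2 fold change of BRD4780 over vehicle for each gene (horizontal axis) with its 95% interval as a bar, ordered from the lowest at the top to the highest at the bottom. Pdia6 (-0.46), Pdia4 (-0.42) and Pdia3 (-0.34) lie left of 0 with intervals that do not reach it, and Pdia4 carries the square that marks an adjusted p under 0.05.

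As a group, 2 of the 10 genes had non-overlapping groups, Pdia3 and Pdia4, both lower with BRD4780, while 5.16% of all tested genes were lower and 7.44% higher in that way. The summed level of the 10 genes was 2271, 2281, 2545 and 2615 CPM in the BRD4780 mice, against 2636, 2726, 2585 and 2532 CPM in the vehicle mice. These sums overlapped, and P4hb and Pdia3 made up most of them.

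Ratios between these genes within a library do not depend on the scaling between libraries. For every 100 counts of P4hb, Pdia3 had 44.6, 46.5, 46.0 and 47.0 counts in the BRD4780 mice, against 62.5, 59.3, 64.7 and 58.6 in the vehicle mice. Pdia4 had 9.89, 11.4, 10.4 and 10.8 counts with BRD4780, against 16.4, 14.0, 15.7 and 13.6 with vehicle. Pdia6 had 11.7, 11.8, 12.1 and 13.6 counts with BRD4780, against 19.7, 18.8, 18.1 and 14.7 with vehicle. In these 3 of 9 genes each treated library lay below each vehicle library, and the SD over the treated mice was 1.01 for Pdia3, 0.628 for Pdia4 and 0.877 for Pdia6. Over all 13473 genes set against P4hb in this way, 12.5% were lower and 3.04% higher without overlap. Txndc5 had 10.3, 11.5, 10.3 and 11.2 counts per 100 P4hb counts with BRD4780, against 12.3, 11.1, 11.1 and 11.0 with vehicle, and overlapped. Erp29, Erp44, Pdia5, Ero1l and Ero1lb overlapped too. These ratios are a description and were not tested.

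**Figure D3:**
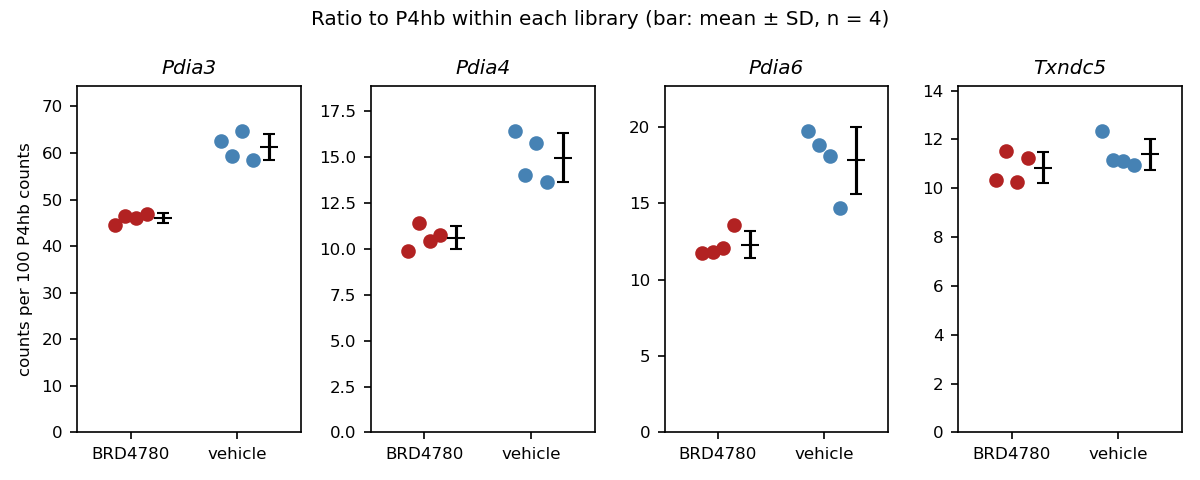
Counts of Pdia3, Pdia4, Pdia6 and Txndc5 per 100 counts of P4hb in the same library (vertical axes from 0), BRD4780 mice left and vehicle mice right, with the mean and SD as a bar. The treated libraries sit at 44.6 to 47.0 for Pdia3, against 58.6 to 64.7 in the vehicle libraries, and Txndc5 shows overlapping groups.

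Levels can be compared between genes per length. Per kilobase of transcript, P4hb stood first, at 417 ± 30.1 CPM with BRD4780 and 396 ± 15.2 CPM with vehicle (SD, n = 4 each). Pdia3 came next, at 198 ± 17.0 CPM with BRD4780 and 250.3 ± 7.08 CPM with vehicle. Pdia6 followed at 67.7 ± 9.27 CPM with BRD4780 and 92.8 ± 12.0 CPM with vehicle. Every library of P4hb lay above every library of Pdia3, and every library of Pdia3 above every library of Pdia6. Pdia4 and Txndc5 stood after these, with means of 52.8 and 45.5 CPM per kilobase with BRD4780, against 70.5 and 45.4 CPM per kilobase with vehicle. The other genes lay between 2.07 for Ero1lb and 30.9 for Erp44 with BRD4780, against 1.98 for Ero1lb and 31.9 for Erp44 with vehicle. Per kilobase of transcript, the order of the means was the same in both groups. In the vehicle group no neighbours in that order overlapped. In the BRD4780 group Pdia4 overlapped Txndc5 (46.5 to 57.4 and 41.1 to 50.6 CPM per kilobase) and Erp44 overlapped Erp29 (28.3 to 33.8 and 23.2 to 28.7 CPM per kilobase). Some places depended on the length used. Erp29 was at place 7 per kilobase of transcript and at place 3 per kilobase of coding sequence, at 169 CPM with BRD4780 and 183 CPM with vehicle. Per kilobase of coding sequence in the vehicle group, Pdia4 was at place 6, behind Txndc5, and Ero1l was ahead of Pdia5. By that length Pdia4 was below Erp44 with BRD4780 (65.8 and 66.6 CPM) but above it with vehicle (88.0 and 68.7 CPM).

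**Figure D4:**
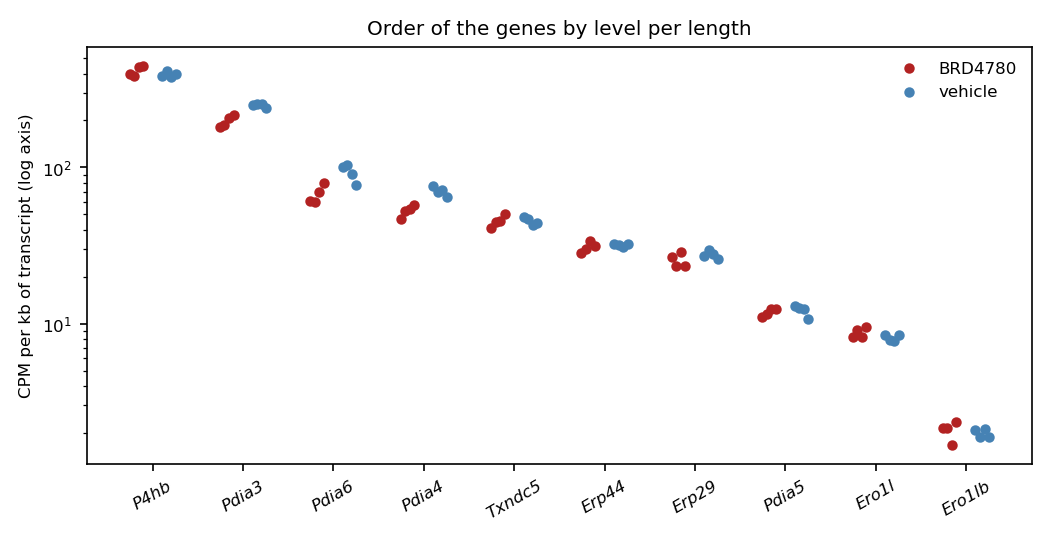
CPM per kilobase of transcript (log axis) for the 10 genes in order of their level, with BRD4780 mice left and vehicle mice right at each gene. P4hb is highest and Ero1lb lowest in both groups, and the treated points of Pdia4 reach down to those of Txndc5.

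The 5 genes whose pattern over the 8 libraries was nearest to that of Pdia4 were sought among 9263 genes whose log2 CPM averaged 3 or more, by the root mean square difference in log2 CPM relative to the vehicle mean. They were Mpped2 (0.0549), Ccdc117 (0.0712), Prps2 (0.0778), Pdia3 (0.0830) and Ninl (0.0944). Pdia3 was therefore the fourth nearest, while Pdia6 was at place 24 (0.112), P4hb at place 5173 (0.360) and Ero1l at place 5691 (0.385). The measure includes the group difference itself, so it places near Pdia4 genes with a similar fold. Ccdc117 fell, to 29.6 ± 1.23 CPM with BRD4780, against 39.3 ± 4.06 CPM with vehicle (SD, n = 4 each; adjusted p = 0.0428). By the same edgeR test Mpped2, Prps2 and Ninl did not pass the threshold (adjusted p = 0.0833, 0.0647 and 0.0550). As the genes were picked on the same values, their tests add no separate evidence.

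The rest of the isomerase family gave no call. Of 15 further ER genes with a thioredoxin fold 10 were tested, with 0 higher and 0 lower and a median log2 fold change of 0.01. At an unadjusted p under 0.05, 1 was lower, as it was by DESeq2 and by limma-voom, against 10.7%, 3.8% and 11.1% of all genes. That gene was Tmx2, which encodes a membrane-bound relative and has exons that overlap Med19 on the opposite strand and Gm28635 on the same strand. It had 142, 139.8, 165 and 158 CPM with BRD4780, against 181, 189, 169.9 and 174 CPM with vehicle. Its groups did not overlap (0.846-fold, adjusted p = 0.107). Txndc12, the gene of ERp18, averaged 38.5 CPM with BRD4780 and 43.2 CPM with vehicle (adjusted p = 0.281), and Txndc16 had a fold of 1.17 (adjusted p = 0.379).

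Other routes of ER oxidation were read from 8 tested genes of 11 listed, of which 0 passed the test. At an unadjusted p under 0.05, 2 were higher, against 13.9% of all tested genes. The median log2 fold change of the 8 genes was 0.07. DESeq2 called 0 of the 8, while limma-voom called 2 higher and 1 lower, against 1654 and 1501 of all 13474 genes. Gpx7, a peroxidase that uses the peroxide made by ERO1 to oxidise isomerases, had 1.53, 1.44, 1.50 and 1.84 CPM with BRD4780, against 0.897, 0.810, 0.670 and 0.992 CPM with vehicle. Every treated library was above every vehicle library at this low level, with 131 counts in all with BRD4780 and 81 with vehicle (1.82-fold, 95% interval 1.27 to 2.62, adjusted p = 0.0740). Gpx8, its membrane-bound relative, had a fold of 1.25 (adjusted p = 0.191) and the sulfhydryl oxidase gene Qsox2 of 1.19 (adjusted p = 0.220).

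The partners of single isomerases were read next. Over all genes, 10.7% were lower at an unadjusted p under 0.05, 3.8% by DESeq2 and 11.1% by limma-voom. The partner genes of P4hb had 3 of 4 members tested and 0 called, with 1 lower at an unadjusted p under 0.05, 0 by DESeq2 and 1 by limma-voom, and a median log2 fold change of -0.09. P4ha1, the alpha subunit of collagen prolyl 4-hydroxylase, averaged 43.7 ± 2.97 CPM with BRD4780 and 52.2 ± 3.73 CPM with vehicle (SD, n = 4 each; 0.839-fold, adjusted p = 0.101). P4ha2 and Mttp had folds of 1.06 and 0.941 (adjusted p = 0.658 and 0.739). The lectins and relatives that work with Pdia3 had 4 of 5 members tested and 0 called, with 1 lower at an unadjusted p under 0.05 and by both other tools, and a median of -0.10. Calr, the gene of calreticulin, had 910.4, 801, 905 and 1059 CPM with BRD4780, against 1313, 1343, 1266 and 1081 CPM with vehicle. The groups did not overlap, although BRD4780 mouse 4 lay just under vehicle mouse 4 (0.734-fold, 95% interval 0.620 to 0.870, adjusted p = 0.0589). Canx, the gene of calnexin, had a fold of 0.882 (adjusted p = 0.217) and Tapbpl of 1.03 (adjusted p = 0.852).

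Genes of proteins that Erp44 retains or binds gave 0 calls among 5 tested, with a median log2 fold change of -0.06. By DESeq2 and by limma-voom 0 were lower, against 3.8% and 11.1% of all genes. At an unadjusted p under 0.05, 1 was lower, against 10.7% of all genes. That gene was Adipoq, which encodes the fat hormone adiponectin. It had 0.538, 5.03, 0.0751 and 0.502 CPM with BRD4780, against 3.23, 16.7, 2.19 and 7.16 CPM with vehicle (adjusted p = 0.193). Its highest value in each group was that of mouse 2. Summed markers of adipocytes, a list that includes Adipoq, were 52.2 to 159.5 CPM with BRD4780 and 81.1 to 239 CPM with vehicle, with 0 of 5 tested markers called. Fabp4 made up most of these sums, with means of 78.5 CPM with BRD4780 and 104 CPM with vehicle (0.761-fold). Plin1, Cidec and Cfd had folds of 0.222, 0.284 and 0.302, and mouse 2 was highest in both groups for each. The median log2 fold change of the 5 was -1.82. The part of adipocytes in the Adipoq values was not tested. Itpr1, the calcium channel that Erp44 inhibits, had a fold of 1.10 (adjusted p = 0.413) and Sumf1 of 0.960 (adjusted p = 0.719).

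The chaperones of the ER lumen share clients with the isomerases. Of 10 tested, 0 were called by edgeR, 5 were lower at an unadjusted p under 0.05, and 5 were lower by DESeq2 and 5 by limma-voom. Over all genes, 10.7% were lower at that unadjusted p, 3.8% by DESeq2 and 11.1% by limma-voom. The median log2 fold change of the 10 chaperone genes was -0.33 and 8 of 10 were negative. Hyou1, the gene of a large chaperone that resets BiP, averaged 81.9 ± 10.1 CPM with BRD4780 and 108 ± 10.8 CPM with vehicle (SD, n = 4 each; 0.757-fold, adjusted p = 0.0684). Dnajb11, a cochaperone of BiP, had a fold of 0.794 with non-overlapping groups (adjusted p = 0.0722), and Creld2, a stress-responsive gene of the secretory pathway, had 0.743 (adjusted p = 0.0735). Hspa5, the gene of BiP, was named after its values were seen. It had 358, 473, 389 and 596 CPM with BRD4780, against 625, 619, 582 and 457 CPM with vehicle. The groups overlapped, with BRD4780 mouse 4 above vehicle mice 3 and 4 and BRD4780 mouse 2 above vehicle mouse 4 (0.794-fold, adjusted p = 0.233). Hsp90b1, the gene of GRP94, also named afterwards, had a fold of 0.896 (adjusted p = 0.425). In Pdia3, Pdia4, Pdia6, Calr, Hyou1 and Hspa5 alike, BRD4780 mouse 4 was the highest treated library and vehicle mouse 4 the lowest control.

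**Figure D5:**
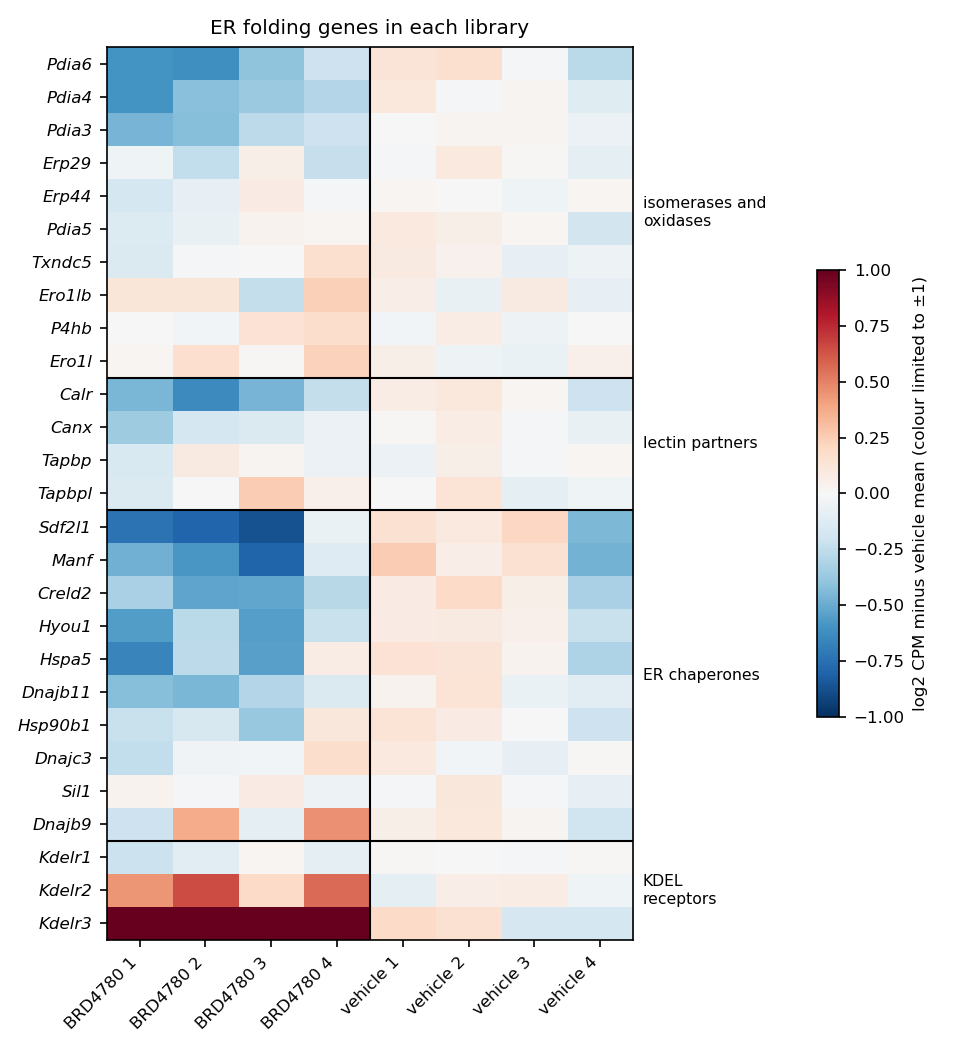
Log2 CPM minus the vehicle mean (colour, limited to 1 on either side) in the 4 BRD4780 libraries, left, and the 4 vehicle libraries, right, for the isomerases and oxidases, the lectin partners of Pdia3, the ER chaperones and the KDEL receptors. Pdia6, Pdia4 and Pdia3 are below the vehicle mean in all 4 treated columns, P4hb and Ero1lb lie on both sides of it, Ero1l is above it in all 4, and Kdelr3 and Kdelr2 are above it in all 4.

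Many isomerases end in a KDEL-type signal that is caught by receptors in the Golgi. Of the 3 receptor genes, 2 rose with BRD4780 and 0 fell, with a median log2 fold change of 0.47. Of all tested genes, 2.3% rose and 0.623% fell. Kdelr2 had 152, 175, 127 and 165 CPM with BRD4780, against 105, 117, 117 and 108 CPM with vehicle. The groups did not overlap (1.39-fold, 95% interval 1.19 to 1.62, adjusted p = 0.0428), and the call was lost in 7 of 8 fits that left out 1 library, at log2 fold changes of 0.40 to 0.55 over the 8. Kdelr3 rose 4.65-fold (adjusted p = 0.00197), with 7.74, 9.80, 5.67 and 9.54 CPM with BRD4780, against 1.97, 1.92, 1.52 and 1.51 CPM with vehicle. The exons of Kdelr3 overlap Ddx17 on the opposite strand. Kdelr1, named after its values were seen, had a fold of 0.935 (adjusted p = 0.423).

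Among 7 factors known to act on isomerase or ERO1 genes, 1 rose and 1 fell, and the median log2 fold change was 0.02. Among all tested genes, 2.3% rose and 0.623% fell. Xbp1, whose product drives isomerase genes in the unfolded protein response, fell, to 124, 126, 106 and 133 CPM with BRD4780, against 221, 168, 156 and 164 CPM with vehicle. All treated libraries lay below all vehicle libraries, and vehicle mouse 1 was the highest (0.688-fold, adjusted p = 0.0451). That call was lost without TMM scaling (adjusted p = 0.0720) and in 7 of 8 fits without 1 library. Atf4, whose product acts in the integrated stress response, rose, to 189.5, 191, 159 and 192 CPM with BRD4780, against 117, 129.9, 119.5 and 116 CPM with vehicle (1.52-fold, adjusted p = 0.0106). Ddit3, the gene of CHOP, which can drive Ero1l, was named after its values were seen. It had 34.9, 32.3, 18.5 and 31.8 CPM with BRD4780, against 15.6, 17.9, 21.9 and 10.2 CPM with vehicle, with BRD4780 mouse 3 inside the vehicle range (1.79-fold, adjusted p = 0.0822).

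Markers of some kidney cell types changed with the treatment beside these genes. For comparison, 0.623% of all tested genes were lower and 2.3% were higher. At an unadjusted p under 0.05 in edgeR's test, 10.7% were lower and 13.9% were higher. Summed markers of the thick ascending limb were 1881 to 3107 CPM with BRD4780 and 2889.5 to 3913 CPM with vehicle, with 3 of 6 lower. At the unadjusted p, 5 of the 6 were lower, and the median log2 fold change of the 6 was -0.57. As for Pdia3, Pdia4 and Pdia6, BRD4780 mouse 4 was the highest treated library in the limb sum. The lowest vehicle library was mouse 3 for that sum and for its markers Umod and Kcnj1. It was mouse 4 for the limb markers Slc12a1, Cldn16, Cldn19 and Bsnd, as for Pdia3, Pdia4 and Pdia6. The lowest treated library was mouse 2 for the limb sum and Pdia6, and mouse 1 for Pdia3 and Pdia4. It differed between single limb markers. Podocyte markers summed to 193 to 294 CPM with BRD4780 and 54.4 to 134 CPM with vehicle, with 3 of 6 higher. At the unadjusted p, 6 were higher, and the median log2 fold change was 1.34. Endothelial markers summed to 226 to 294 CPM with BRD4780 and 108 to 213 CPM with vehicle, with 2 of 6 higher. At the unadjusted p, 5 of these were higher, and their median log2 fold change was 0.65. Vehicle mouse 4 was the lowest library in both the podocyte and the endothelial sums. Proximal tubule markers, the most abundant, summed to 7657 to 11987 CPM with BRD4780 and 9331 to 10341 CPM with vehicle. Of these, 0 of 6 were called and 1 was higher at the unadjusted p. Markers of plasma and B cells, which are rich in isomerases, summed to 5.63 to 6.68 CPM with BRD4780 and 4.83 to 10.4 CPM with vehicle, with 0 of 4 tested markers called. Sums of collecting duct (444 to 941 CPM with BRD4780, 636 to 957 CPM with vehicle), fibroblast (111 to 139.8 CPM with BRD4780, 97.9 to 124 CPM with vehicle), macrophage (84.3 to 130.1 CPM with BRD4780, 113 to 172 CPM with vehicle) and erythrocyte markers (154 to 782 CPM with BRD4780, 477 to 1576 CPM with vehicle) overlapped, with 0 markers called in each. Of 5 listed erythrocyte markers 3 were tested, with a median log2 fold change of -1.39. At an unadjusted p under 0.05 in edgeR's test, 3 of these were lower, against 10.7% of all tested genes. No marker of these cell type lists was at 0 in all 8 libraries, and the part of cell composition in the isomerase values was not tested.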

How the data were processed

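Bulk RNA sequencing of 8 kidneys, 4 given BRD4780 and 4 given vehicle, was read from a table of expected counts per gene, which the authors deposited unnormalized. Per the submitters' processing notes the tools included Picard, RSEM 1.3.0 and STAR 2.5.2b and the builds mm10 and hg19, with no roles. No source used here gives the annotation or says whether strand was used in counting. RSEM shares reads between similar genes by likelihood, and 15.1% to 28.9% of values in a library were not whole. Of the 10 genes, 5 have exons that overlap another gene, as do some further named genes such as Kdelr3 and Tmx2. Counts are less certain there.

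Of 22121 entries, 343 symbols on more than 1 line held identical values and were collapsed to 21759 genes. A per-sample column matching none of the samples (1) was not used. Counts were rounded, filtered with filterByExpr (minimum count 10), scaled by TMM and compared in edgeR 4.0.16 (R 4.3.3) by the quasi-likelihood F-test with no covariate, adjusted over 13474 genes by the Benjamini-Hochberg method at 0.05. SE is the absolute log2 fold change over the square root of F, and 95% intervals use the test's own degrees of freedom. Promoter windows are RefSeq's, and positions and lengths are from GENCODE M21, with the transcript matched to RefSeq that has the longest coding part.

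The 10 genes and the further lists were chosen with earlier results of these data known. All 10 were named, with every gene past the threshold in a further list or else its 3 smallest p, and the 5 nearest to Pdia4. The named alternatives were DESeq2 1.42.0, limma-voom (limma 3.58.1), other scalings and filters, thinned counts, a replicate block on numbers in the titles and leaving out each library. The test was checked on simulated counts. Floors of 3 counts cover counting error only.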

Additional observations from a re-analysis of the deposited data

Results flagged for a closer look

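In 110 groups of 4 libraries examined over the named genes, sums and ratios, 8 held a library far from the other libraries, its gap to the nearest exceeding Dixon's 95% critical share of the range. Chance flags about 1 in 20 groups. In the isomerase family itself, Txndc5 reached 12.3 counts per 100 P4hb counts in vehicle mouse 1, against 11.0 to 11.1 in the other vehicle mice. Txndc12 was at 34.1 CPM in BRD4780 mouse 1, against 39.5 to 40.5 CPM in the other treated mice. The summed partners of P4hb were at 103 CPM in vehicle mouse 4, against 118 to 121 CPM in the other controls. Hyou1 was at 91.9 CPM in vehicle mouse 4, against 112 to 114 CPM in the other controls. Atf4 was at 159 CPM in BRD4780 mouse 3, against 189.5 to 192 CPM in the other treated mice. Among the genes of proteins that Erp44 retains or binds, Adipoq was at 5.03 CPM in BRD4780 mouse 2, against 0.0751 to 0.538 CPM in the other treated mice. Itpr1 was at 260.5 CPM in BRD4780 mouse 1, against 238 to 241 CPM in the other treated mice. Sumf1 was at 60.7 CPM in vehicle mouse 3, against 68.7 to 69.1 CPM in the other controls. No cause was tested for any of these.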

How the results depend on the processing

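The number of the 10 genes lower with BRD4780 was 1 over all libraries. It was 3 by DESeq2 and 3 by limma-voom (Pdia3, Pdia4 and Pdia6 in both), 0 with library totals in place of TMM, and 0 to 3 when 1 library was left out. It was 0 without BRD4780 mouse 1, 2 or 4 or vehicle mouse 1, 2 or 3, and 3 without BRD4780 mouse 3, where 11.3% of all genes were lower. The number higher was 0 under each of the 15 alternatives. Pdia3, Pdia4 and Pdia6 kept a negative log2 fold change in all 15, from -0.38 to -0.27, from -0.46 to -0.35 and from -0.55 to -0.39. Signs turned for Pdia2 and for genes near 0, none of them past the threshold. Pdia5 stood at 0.0219 with library totals and 0.108 with thinned counts, Erp44 at 0.0205 and Sumf1 at 0.0081 with library totals. Txndc5 was at -0.0140 by DESeq2, -0.00998 with upper-quartile factors, -0.00279 without the filter and -0.00036 with the replicate block. Ero1lb was at -0.0015 and Tapbpl at -0.0355 with thinned counts, and Tapbpl at -0.0081 by limma-voom. With 1 library left out, Txndc5 ranged from -0.0517 to 0.0475, Mttp from -0.209 to 0.0105, Tapbpl from -0.0430 to 0.105, Sumf1 from -0.12 to 0.0061 and Pdia2 from -0.93 to 0.12. The calls of Kdelr3 and Atf4 held in all 8 such fits. Over all genes, calls numbered 310 higher and 84 lower, against 850 and 505 by DESeq2, 1654 and 1501 by limma-voom, 1647 and 1537 without BRD4780 mouse 3, and 26 and 5 without vehicle mouse 2. The cause was not tested. Library totals alone moved the median log2 fold change of all genes to 0.08. The replicate numbers used here follow the order of deposition and pair nothing. The titles carry mouse numbers, of which 2 occur in both arms (BRD4780 mouse 1 with vehicle mouse 2, BRD4780 mouse 2 with vehicle mouse 4), and the labels do not say what a shared number means. Deviations from the group means correlated at -0.0097 and -0.298 over genes in these pairs, against -0.271 to 0.276 in the other pairs of treated and vehicle mice. With 2 such pairs, these values cannot decide whether the numbers pair the samples. A replicate block on them, chosen after seeing the data, gave 0 of the 10 genes lower (Pdia4 at -0.42, adjusted p = 0.0724) and 40 higher and 10 lower over all genes. With the block Kdelr2 and Xbp1 were not past the threshold (adjusted p = 0.110 and 0.122), and Kdelr3 and Atf4 were. The shallowest library, BRD4780 mouse 4, limits genes of few counts such as Ero1lb.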

Other observations

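Pdia2, the isomerase gene best known from pancreas, was named after its values were seen, as its spread within each group was wide. It had 1.45, 1.74, 0.0376 and 0.167 CPM in BRD4780 mice 1 to 4, against 1.22, 1.40, 2.19 and 0.0862 CPM in vehicle mice 1 to 4. BRD4780 mice 3 and 4 and vehicle mouse 4 were under the floor of 3 counts, while the other 5 libraries were above 1 CPM, with 89 counts in all with BRD4780 and 110 with vehicle (adjusted p = 0.845 by edgeR's quasi-likelihood test). The source of this spread was not tested.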
